A study of Rattus norvegicus with 6 samples.

Results

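The genes described here carry out or regulate the burning of fatty acids, and many of them are known targets of the PPAR nuclear receptors. They were chosen as a fixed list of 37 genes, and their members were all probe sets annotated to them on a rat array of 8799 probe sets. Of the 37 genes, 35 had at least 1 probe set of their own, giving 56 probe sets. Crat, a carnitine acetyltransferase gene, was matched to none, and Acaa1a, a peroxisomal thiolase gene, was annotated only on a probe set that also lists another gene. The arrays measured total RNA of the dorsolateral prostate from male rats of the inbred ACI strain, labelled as 18 months old. For 18 months, 3 rats had a high corn oil diet and 3 others a low corn oil diet, which the design text calls the control diet, and each rat had its own array. These are called high-oil and low-oil rats below. The oil content of the diets is not given in the sources used here. High corn oil replicate 3 was placed by its title and source name, although its description names the low diet.

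Long-chain fatty acids enter cells with the help of Cd36 and are carried in the cytosol by fatty acid-binding proteins. The carnitine palmitoyltransferases Cpt1 and Cpt2, with the carrier Slc25a20 between them, move their acyl groups into mitochondria, where dehydrogenases, hydratases and thiolases remove acetyl units in turn. Peroxisomes shorten very long and branched chains by a similar cycle with other enzymes. PPAR alpha, delta and gamma bind fatty acids and, paired with the receptor RXR, switch on many of these genes through direct repeats of the half-site AGGTCA. Linoleic acid, the main fatty acid of corn oil, is a natural PPAR ligand.

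The promoters of 5 members are shown for the results below: Cpt2 had the smallest p of the tested members, Hadha and Hadhb encode both subunits of one enzyme from neighbouring genes, Eci1 had a probe set whose diets did not overlap, and Acadvl held 2 half-sites, as did Ucp3, which was too dim to test. Each window runs from 250 bases before to 50 bases after the gene's start in the RefSeq annotation of build GRCr8, 5′ to 3′ on the gene's strand. Capitals mark the half-site AGGTCA or, on the other strand, TGACCT.
Cpt2 (chr5:127910769-127911068, minus strand): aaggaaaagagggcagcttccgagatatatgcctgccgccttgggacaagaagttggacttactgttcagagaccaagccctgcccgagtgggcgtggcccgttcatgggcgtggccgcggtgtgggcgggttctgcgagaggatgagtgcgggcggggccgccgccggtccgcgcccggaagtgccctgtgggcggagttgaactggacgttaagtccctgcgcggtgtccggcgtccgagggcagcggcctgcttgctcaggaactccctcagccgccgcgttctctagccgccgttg
Hadha (chr6:31907551-31907850, plus strand): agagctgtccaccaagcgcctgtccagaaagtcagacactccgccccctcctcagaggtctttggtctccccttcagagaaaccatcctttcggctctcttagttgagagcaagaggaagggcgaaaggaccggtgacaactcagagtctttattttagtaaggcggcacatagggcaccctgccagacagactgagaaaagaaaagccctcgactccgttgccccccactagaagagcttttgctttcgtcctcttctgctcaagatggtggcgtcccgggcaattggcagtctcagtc
Hadhb (chr6:31907451-31907750, minus strand): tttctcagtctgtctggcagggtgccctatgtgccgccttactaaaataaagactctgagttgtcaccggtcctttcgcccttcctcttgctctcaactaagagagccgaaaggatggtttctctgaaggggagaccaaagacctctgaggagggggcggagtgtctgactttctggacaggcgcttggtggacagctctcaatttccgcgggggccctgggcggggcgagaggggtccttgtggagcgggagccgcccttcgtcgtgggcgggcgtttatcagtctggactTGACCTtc
Eci1 (chr10:13961000-13961299, plus strand): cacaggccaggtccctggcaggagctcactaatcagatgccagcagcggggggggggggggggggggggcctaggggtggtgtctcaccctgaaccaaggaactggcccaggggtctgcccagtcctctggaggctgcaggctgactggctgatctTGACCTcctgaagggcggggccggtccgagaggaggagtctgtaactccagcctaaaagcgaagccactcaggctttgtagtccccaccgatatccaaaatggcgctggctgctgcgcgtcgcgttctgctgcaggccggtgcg
Acadvl (chr10:55236656-55236955, minus strand): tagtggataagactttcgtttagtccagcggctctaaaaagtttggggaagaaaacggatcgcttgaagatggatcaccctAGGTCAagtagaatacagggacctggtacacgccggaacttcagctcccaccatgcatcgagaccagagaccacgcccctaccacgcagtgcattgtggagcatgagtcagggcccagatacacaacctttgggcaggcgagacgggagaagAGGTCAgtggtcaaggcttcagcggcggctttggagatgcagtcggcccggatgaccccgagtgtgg
The Hadha and Hadhb windows share 200 bases, since the genes start head to head on opposite strands with 301 bases between their start positions. RefSeq windows were matched for 30 of the 37 genes, and Pparg had a pair of them, giving 31. The half-site AGGTCA, searched on both strands, was in 7 of the 31 member windows (22.6%) and in 5415 of all 33469 windows (16.2%). The 7 belonged to Acadvl, Eci1, Fabp1, Fabp7, Hadhb, Hsd17b4 and Ucp3. The complete direct repeat, the half-site followed by any base and the half-site again, was in 0 of 31 member windows and in 18 of all windows (0.0538%). These matches are letters in a window and not binding sites, and binding was not measured.

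The values were linear intensities, 1 per probe set and array. Intensities of different probe sets cannot be ranked against each other. The arrays had median intensities from 573 to 710, and 18.6% to 23.1% of an array's values were at or below 0, for which the sources used here give no reason. One high-oil rat, high corn oil replicate 1, differed from its group: the Spearman correlation of its array over the tested probe sets was 0.869 and 0.881 with the others of that diet but 0.928 to 0.950 with the low-oil arrays. All 8 measured markers of prostate epithelium were above 0 on every array, among them the secretory protein genes Pbsn and Msmb. Pbsn was at 19851 and 21926 in high corn oil replicates 2 and 3, against 78113 to 99574 on the other arrays. Sbp, another of the 8, was at 45313 and 53056 in these replicates, against 1891 to 39729 on the other arrays. Between the diets 4 of the 8 were higher and 4 lower in the high-oil rats, with a median log2 difference of 0.03. Of the fibroblast markers 7 of 7 were lower in the high-oil than in the low-oil rats, with a median difference of -0.63 on the log2 scale used below. In 6 of the 7 the diets did not overlap, all lower, against 15.5% of all tested probe sets and 6.71% in that direction. Of the 7, 0 passed the adjusted test described below.

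Testing was limited to probe sets that averaged 343 or more on the 6 arrays, a limit set at the 40th percentile of all means. This kept 35 member probe sets of 23 genes and left 21 probe sets, among them every probe set of 12 genes, untested. Differences are high minus low corn oil on a log2 scale after a floor at 0 and an added offset of 156, which understates the change of dim probe sets. In limma, with p-values adjusted by Benjamini and Hochberg's method across all 5244 probe sets tested, 0 member probe sets passed the threshold of 0.05 (0% of all tested probe sets did), and the smallest adjusted p of a member was 0.480. At an unadjusted p under 0.05 there was 1 of 35 member probe sets (2.86%), which was higher, against 9.95% of all tested probe sets, 5.15% higher and 4.81% lower. Of the 35, 22 were above 0, against 53.9% of all tested probe sets. In 5 of 35 (14.3%) the intensities of both diets did not overlap, 3 higher and 2 lower, against 15.5% of all tested probe sets, 8.83% higher and 6.71% lower. The members' shares at an unadjusted p under 0.05 and without overlap were thus no larger than those of the array as a whole.

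Taking for each gene its probe set of highest mean, 16 of 23 member genes were above 0 and 7 below, with a median log2 difference of 0.08. Over all 3162 tested genes the median was 0.05. Single members ranged from -0.49 to 0.54. Set against the mean of the low-oil arrays, the median member of the 3 high-oil rats stood at 0.18, -0.01 and 0.10 and that of the 3 low-oil rats at -0.09, 0.04 and 0.11. The diets overlapped in this measure. The largest high corn oil value came from replicate 1, the array that otherwise resembled the low corn oil arrays. Leaving it out gave a median of -0.02, and so did leaving out low corn oil replicate 1 (-0.02), but it was 0.13 when either high or low corn oil replicate 2 was left out. It was 0.00 with the mean of each gene's probe sets and 0.15 when dimmer probe sets, up to the 60th percentile, were left out.

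**Figure D1:**
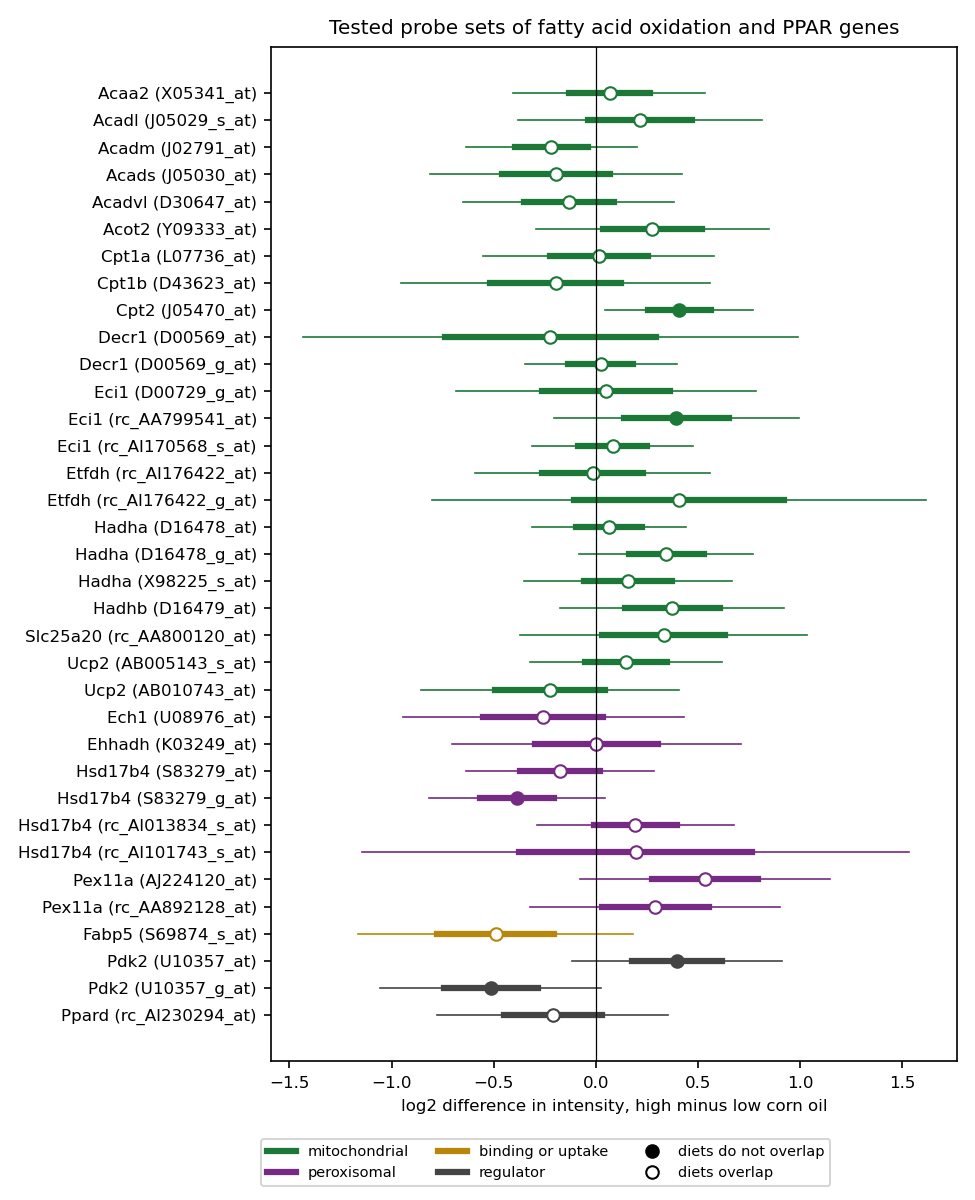
Log2 difference in intensity, high minus low corn oil, of the 35 tested member probe sets, coloured by role. Points are limma estimates from 3 arrays per diet, thick bars span 1 SE to either side and thin bars the 95% confidence interval. Filled points mark the 5 probe sets whose diets did not overlap, and the interval of Cpt2 is the only one that leaves out 0.

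Of the mitochondrial genes, 16 of 19 had a tested probe set, and Cpt2 had the clearest separation between the diets. Of these 16 genes 12 were above 0 and 4 below, with a median of 0.12. That median was 0.02 with array weights. It was 0.01 or 0.02 when replicate 1 of the low or of the high diet was left out, and 0.18 without low corn oil replicate 2. At an unadjusted p under 0.05 there was 1 of 23 mitochondrial probe sets, against 9.95% of all tested probe sets. In 2 of 23 (8.70%) the diets did not overlap, both higher, against 15.5% of all tested probe sets and 8.83% in that direction. None passed the adjusted test.

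Cpt2, the inner-membrane enzyme that hands fatty acids from carnitine back to coenzyme A, had intensities of 4946, 4001 and 4845 in the high-oil rats against 3573, 3532 and 3145 in the low-oil rats. All 3 high corn oil arrays lay above all 3 low ones. The means were 4597 ± 519 (SD, n = 3) and 3417 ± 236, a log2 difference of 0.41 ± 0.15 (SE), or 1.33-fold, with a 95% interval of 0.05 to 0.77. The limma p was 0.0325 and the adjusted p 0.480. Leaving out each array in turn gave 0.35 to 0.50, and with the arrays centred on their medians or quantile normalized no member was left at an unadjusted p under 0.05. With high corn oil replicate 3 read as low, the difference of Cpt2 was 0.25 ± 0.22 (limma adjusted p = 0.998).

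The other genes of the carnitine shuttle did not separate the diets. Cpt1a, the liver-type enzyme that loads fatty acids onto carnitine and is usually held to be the control point of the pathway, differed by 0.01 ± 0.24 with a 95% interval of -0.55 to 0.58, and by -0.18 without high corn oil replicate 1. Cpt1b, the muscle-type form, differed by -0.20 ± 0.32. Slc25a20, the carnitine-acylcarnitine carrier of the inner membrane, differed by 0.33 ± 0.30. These intervals are wide enough to hold changes as large as that of Cpt2.

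Hadha and Hadhb encode the alpha and beta subunits of the mitochondrial trifunctional protein, which carries out the last 3 steps of the long-chain cycle. Hadha, in the probe set with its highest mean, had intensities of 7436, 9547 and 11215 in the high-oil rats against 7964, 6675 and 7220 in the low-oil rats. High corn oil replicates 2 and 3 were above every low array and replicate 1 was not. The difference was 0.34 ± 0.18 (limma adjusted p = 0.517), and 0.21 without high corn oil replicate 3. Hadhb had 6087, 4957 and 6146 in the high-oil rats against 3067, 5049 and 5349 in the low-oil rats. The diets overlapped, and low corn oil replicate 1 was the lowest array. Its difference was 0.37 ± 0.23 (limma adjusted p = 0.551), and 0.13 without that array. The other probe sets of Hadha were at 0.06 ± 0.16 and 0.16 ± 0.22.

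The acyl-CoA dehydrogenases, which open each round of the cycle and differ in the chain length they prefer, lay on both sides of 0, each with a limma p above 0.05. The long-chain gene Acadl was at 0.22 ± 0.25, the very-long-chain gene Acadvl at -0.13 ± 0.22, the medium-chain gene Acadm at -0.22 ± 0.18 and the short-chain gene Acads at -0.20 ± 0.26. Without high corn oil replicate 1 Acads was at -0.44. Etfdh, which passes the electrons they release to ubiquinone, was at -0.02 ± 0.25 in one probe set and 0.41 ± 0.52 in the other, which was at 0.92 without high corn oil replicate 1. With low corn oil replicate 2 left out, that probe set was at 0.02. Acaa2, the mitochondrial thiolase, had 15689, 11729 and 13884 in the high-oil rats against 10129, 15508 and 14135 in the low-oil rats. These arrays were mixed, and the difference was 0.07 ± 0.20 (limma adjusted p = 0.902).

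Unsaturated fatty acids such as linoleic acid need the auxiliary enzymes Eci1, an enoyl-CoA isomerase, and Decr1, a dienoyl-CoA reductase. One Eci1 probe set (rc_AA799541_at) had 733, 892 and 1297 in the high-oil rats against 658, 700 and 699 in the low-oil rats. All high corn oil arrays were above all low ones, with replicate 3 far above replicate 1. The difference was 0.39 ± 0.26 (limma adjusted p = 0.558), and 0.20 without high corn oil replicate 3. It was 0.55 without high corn oil replicate 1. The other tested Eci1 probe sets were at 0.05 ± 0.31 and 0.08 ± 0.17, with overlapping diets. Decr1 was at 0.02 ± 0.16 and -0.22 ± 0.52 in its probe sets.

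Acot2, a mitochondrial thioesterase that frees fatty acids from coenzyme A, was at 0.28 ± 0.24. Ucp2, a mitochondrial carrier of the uncoupling protein family, had 56128, 40823 and 50968 in the high-oil rats against 35138, 45461 and 53770 in the low-oil rats in its probe set with the highest mean. The diets overlapped over most of their range. Its difference was 0.15 ± 0.20 (limma adjusted p = 0.767), while its other probe set was at -0.22 ± 0.27.

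**Figure D2:**
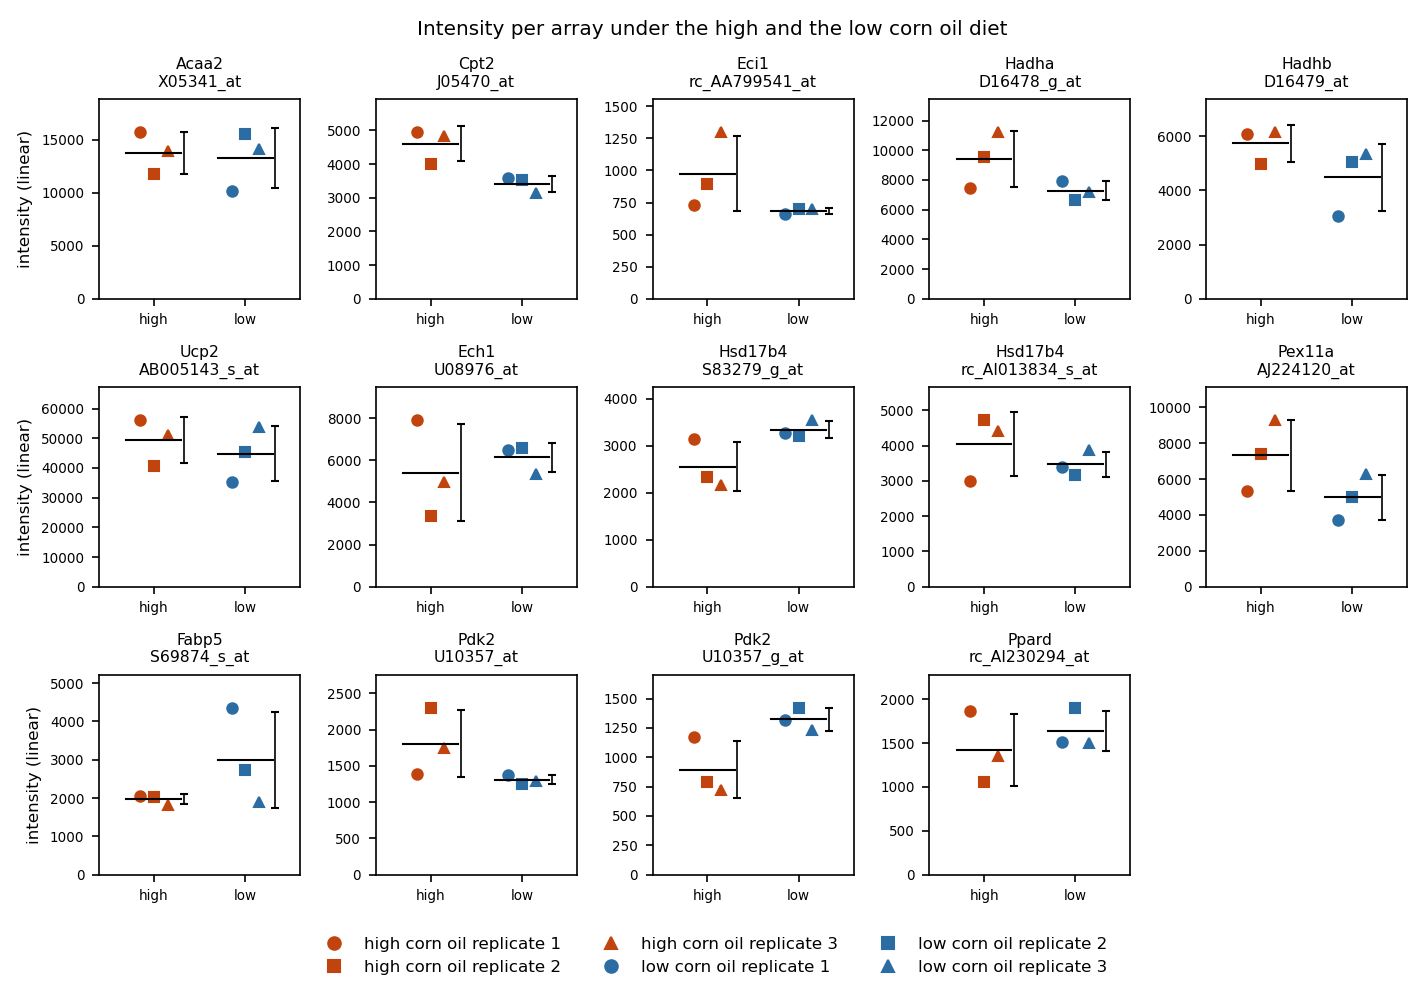
Linear intensity of 14 member probe sets on each array, by diet, with every axis starting at 0. Horizontal bars are means and error bars are 1 SD to either side of the mean (n = 3). Cpt2 lies above the low arrays on all 3 high arrays, and the pair of Pdk2 panels shows opposite differences.

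Of the peroxisomal genes, 4 of 6 had a tested probe set, and none passed. Of these 4 genes 3 were above 0 and 1 below, with a median of 0.10. That median was 0.03 when low corn oil replicate 2, 0.04 when high corn oil replicate 3 and 0.19 when low corn oil replicate 3 was left out, and it was -0.02 if high corn oil replicate 3 is read as low or if the probe sets of a gene are averaged. Pex11a, which drives the elongation and division of peroxisomes, had the largest difference of the 35 tested member probe sets. Its intensities were 5312, 7369 and 9284 in the high-oil rats against 3729, 4973 and 6256 in the low-oil rats. High corn oil replicates 2 and 3 were above every low array, and replicate 1 lay between the low arrays. The difference was 0.53 ± 0.26, or 1.45-fold, with a 95% interval of -0.08 to 1.15 (limma adjusted p = 0.508). It was 0.35 when either low corn oil replicate 1 or high corn oil replicate 3 was left out. Its other probe set was at 0.29 ± 0.26, and at -0.00 without low corn oil replicate 1.

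Hsd17b4 encodes the D-bifunctional protein, which performs the middle steps of peroxisomal oxidation, and its 4 tested probe sets did not give one direction. In the probe set S83279_g_at the intensities were 3147, 2345 and 2164 in the high-oil rats against 3278, 3210 and 3545 in the low-oil rats. All high corn oil arrays were below all low ones, replicate 1 by little. The difference was -0.39 ± 0.18 (limma adjusted p = 0.505). In the probe set with the highest mean (rc_AI013834_s_at) they were 3013, 4727 and 4416 in the high-oil rats against 3384, 3160 and 3871 in the low-oil rats. Here replicate 1 was the lowest array of all and replicates 2 and 3 the highest, with a difference of 0.19 ± 0.21 (limma adjusted p = 0.704). The remaining probe sets were at -0.17 ± 0.20 and 0.20 ± 0.57.

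Ech1, a dienoyl-CoA isomerase of peroxisomes and mitochondria, had 7901, 3353 and 4976 in the high-oil rats against 6494, 6589 and 5359 in the low-oil rats. High corn oil replicate 1 was the highest array and replicates 2 and 3 the lowest. The difference was -0.26 ± 0.29 (limma adjusted p = 0.727), -0.57 when high corn oil replicate 1 and 0.03 when high corn oil replicate 2 was left out. Ehhadh, the other bifunctional enzyme of peroxisomes and a classical PPAR alpha target, was at 0.00 ± 0.30 with a 95% interval of -0.71 to 0.71. Acox2, the oxidase of branched chains and bile acid intermediates, was not tested: 4 of its 6 values were at or below 0.

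Among the genes of binding or uptake, Fabp5 alone was bright enough to be tested. Fabp5, the epidermal-type fatty acid-binding protein that is also made by macrophages, had 2064, 2036 and 1822 in the high-oil rats against 4352, 2745 and 1889 in the low-oil rats. The diets overlapped, and the low corn oil arrays were spread much more widely than the high ones. The difference was -0.49 ± 0.29 (limma adjusted p = 0.538), and -0.20 without low corn oil replicate 1. Of the macrophage markers, 6 of 6 tested had a difference below 0, with a median of -0.63, and 0 of them passed. None had intensities at or below 0 on all arrays. In 4 of the 6 (Aif1, C1qb, C1qc and Coro1a) the high-oil rats were below all low-oil rats. Over all tested probe sets the diets did not overlap in 15.5%, with 6.71% in that direction. The summed intensity of all 7 measured macrophage markers was 37524 to 60482 in the high-oil and 56606 to 62400 in the low-oil rats. Lyz2, the brightest of them, made up much of this sum. It was at 21112 to 39833 in the high-oil and 29369 to 35165 in the low-oil rats, so its diets overlapped. The part of macrophages in the value of Fabp5 was not tested, and in whole tissue fewer cells of a type and less RNA per cell cannot be told apart.

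The tissue-typical binding proteins were dim, often at or below 0. Fabp1, the liver form, was at or below 0 on all 6 arrays, and Fabp2, the intestinal form, on 5 of 6. Fabp7, a brain and glial form, was at or below 0 on 2 arrays and reached 311. Fabp3, the heart and skeletal muscle form, had 82.5, 792 and 353 in the high-oil rats against 150, 59.4 and 315 in the low-oil rats. High corn oil replicate 2 was the only array above 400 in that gene's probe set. Of the skeletal muscle markers, 2 of 10 tested had a difference above 0 and 8 had one below. The intensities of all 11 measured ones summed to 21257 to 46000 in the high-oil and 31993 to 40948 in the low-oil rats. Acta1, the brightest of them, made up much of this sum. It was at 12175 to 21161 in the high-oil and 16523 to 22628 in the low-oil rats, so its diets overlapped. None of the 11 markers had intensities at or below 0 on all arrays. The part of skeletal muscle in the value of Fabp3 was not tested.

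Cd36, the fatty acid translocase of capillaries, fat cells and macrophages, was also too dim in both of its own probe sets. One had 1.4, 334 and 34.2 in the high-oil rats against 292, 132 and -139 in the low-oil rats, and the other was at or below 0 on 3 arrays. Of the fat cell markers 1 of 5 tested had a difference above 0 and 4 had one below. In 1 of the 5, Cfd, the high-oil rats were below all low-oil rats, against 6.71% of all tested probe sets in that direction. The adjusted test was passed by 0 of the 5. Plin1 had intensities at or below 0 on all arrays, and Fabp4 on 3 high-oil and 2 low-oil arrays. The summed intensity of all 7 measured fat cell markers was 6714 to 10723 in the high-oil and 9682 to 11310 in the low-oil rats. Lep, the brightest of these markers, made up much of this sum. It was at 3581 to 7347 in the high-oil and 5235 to 8007 in the low-oil rats, so its diets overlapped. The part of fat cells in the value of Cd36 was not tested. Acot1, a cytosolic thioesterase placed in this group, was at or below 0 on 4 of 6 arrays.

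The PPAR genes themselves were at or below the limit of the test, apart from Ppard. Ppara, the main switch of fatty acid oxidation in liver, had 149, 446 and 377 in the high-oil rats against 95.1, 403 and 287 in the low-oil rats and was not tested. These arrays overlapped nearly completely. Pparg, the regulator of fat cell formation, lay between -172 and 160 and was not tested either. Ppard, the broadly expressed form, had 1866, 1050 and 1347 in the high-oil rats against 1518, 1899 and 1495 in the low-oil rats in its tested probe set (rc_AI230294_at). High corn oil replicate 1 lay among the low arrays and replicates 2 and 3 below them. The difference was -0.21 ± 0.24 (limma adjusted p = 0.727), -0.41 when high corn oil replicate 1 and -0.03 when high corn oil replicate 2 was left out.

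Another Ppard probe set, U40064_at, was too dim on average for the test. It had -134, 99.6 and -1278 in the high-oil rats against 607, 664 and 587 in the low-oil rats. All low corn oil arrays lay near 600 and all high ones below 100. With no filter on dim probe sets its difference was -2.07 ± 0.24 (limma adjusted p = 0.158), a value that depends on the floor at 0. The remaining one, from the same GenBank record (U40064_g_at), had 537, 69.1 and 273 in the high-oil rats against -81.6, 74.4 and 176 in the low-oil rats. That probe set went the other way, and its diets overlapped.

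**Figure D3:**
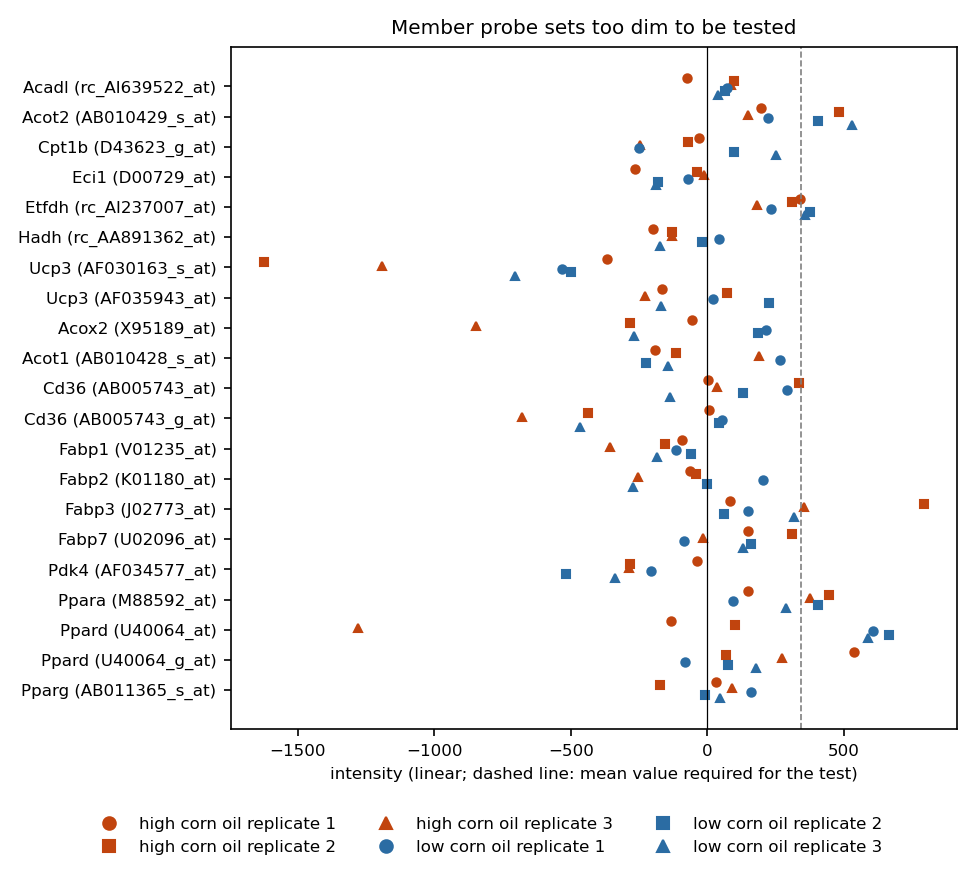
Linear intensity of the 21 member probe sets that were not tested, 1 row each, on all 6 arrays. The solid line marks 0 and the dashed line 343, the mean needed for the test, and the 4 probe sets at or below 0 on every array belong to Eci1, Ucp3, Fabp1 and Pdk4.

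Over these 21 untested probe sets, 61 of 126 values were at or below 0, 35 of 63 in the high-oil and 26 of 63 in the low-oil rats. Over the whole array the share at or below 0 was 18.8%, 23.1% and 23.0% in the high-oil rats. In the low-oil rats it was 18.6%, 19.2% and 20.3%. Besides the genes above, Hadh, the mitochondrial short-chain hydroxyacyl-CoA dehydrogenase, was at or below 0 on 5 of 6 arrays. Ucp3, the muscle form of the uncoupling proteins, was so in 9 of 12 values. For these genes the arrays set no level that could be compared.

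In the regulator group 2 of 3 tested probe sets had diets that did not overlap, against 15.5% of all tested probe sets, both of Pdk2 and in opposite directions. With 3 probe sets this count cannot be read as a share. Pdk2 and Pdk4 encode kinases that switch off pyruvate dehydrogenase and so favour fat over glucose as fuel. Pdk4, one of the most responsive PPAR targets in other tissues, was at or below 0 on all 6 arrays. Pdk2, in the probe set U10357_at, had 1386, 2299 and 1742 in the high-oil rats against 1381, 1252 and 1298 in the low-oil rats. All high corn oil arrays were above all low ones, although replicate 1 was so by only a few units. The difference was 0.40 ± 0.22 (limma adjusted p = 0.527), and 0.22 without high corn oil replicate 2. In the probe set U10357_g_at the same RNAs gave 1170, 793 and 722 in the high-oil rats against 1317, 1420 and 1230 in the low-oil rats. Here all high corn oil arrays were below all low ones, with a difference of -0.51 ± 0.23 (limma adjusted p = 0.501).

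Both Pdk2 probe sets were annotated to one GenBank record and they differed in sign, so no direction can be given for the gene. The log2 ratio of the first to the second was 0.22, 1.37 and 1.11 in the high-oil rats against 0.06, -0.16 and 0.07 in the low-oil rats, a gap of 0.91 between the diets. The exact two-sided permutation p was 0.1, the smallest that 3 against 3 arrays can give. Among the 8 genes with more than 1 tested probe set there were 17 pairs, 8 of them with opposite signs, in 5 genes: Decr1, Etfdh, Hsd17b4, Pdk2 and Ucp2. The ratio separated the diets in 2 pairs, those of Pdk2 and Ucp2, and the smallest exact permutation p adjusted over the 17 pairs was 0.68. Since no pair can give a p under 0.1, no adjusted value could have passed 0.05, and nothing is concluded from it. For Ucp2 the log2 ratio was 0.12, 0.50 and 0.47 in the high-oil rats against 0.09, -0.05 and -0.07 in the low-oil rats. In both genes high corn oil replicate 1 was the high array nearest to the low ones.

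**Figure D4:**
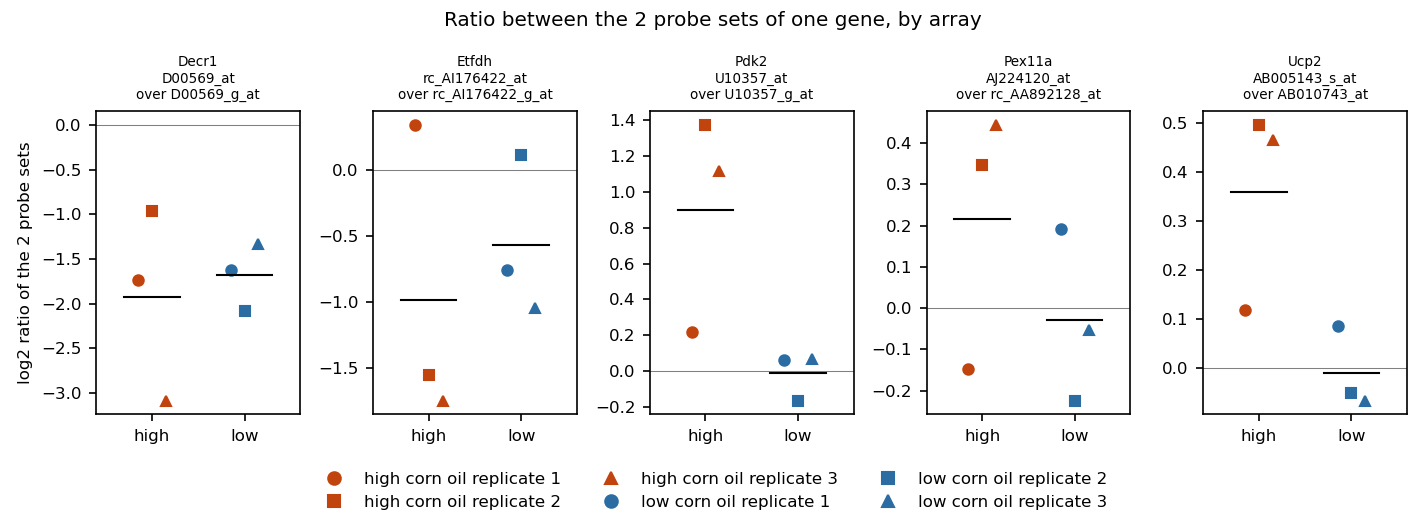
Log2 ratio between the intensities (floor and offset as in the test) of both probe sets of 5 genes that had exactly 2 tested ones, by array and diet. Horizontal bars are means of 3 arrays. The diets do not overlap for Pdk2 and Ucp2, and each panel has its own vertical scale.

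Without high corn oil replicate 1, 7 of 35 member probe sets were at an unadjusted p under 0.05 (20%, against 26% of all tested probe sets) and 14 had diets that did not overlap (40%, against 46.1%). No member passed the adjusted test there, while 214 probe sets of the array did (4.08%). The 7 were both Pdk2 probe sets (0.56 and -0.69), Hsd17b4 in 2 probe sets (0.39 and -0.54), Hadha (0.50), Pex11a (0.74) and Ech1 (-0.57). Thus both directions again occurred within Pdk2 and Hsd17b4. The count at an unadjusted p under 0.05, 1 with all arrays, was 0 without high corn oil replicate 3 (against 4.82% of all tested probe sets), low corn oil replicate 1 (5.64%) or low corn oil replicate 2 (5.23%). The count was 1 when high corn oil replicate 2 was left out (7.25%), and 2 when it was low corn oil replicate 3 (9.8%). The count without overlap, 5 with all arrays, was 8 of 35 (22.9%) without low corn oil replicate 1, against 22.6% of all tested probe sets. It was also 8 when low corn oil replicate 3 was left out, against 29.9%. Leaving out replicate 2 gave 7 for the high diet (against 23.9%) and 6 for the low diet (against 21.2%), and leaving out high corn oil replicate 3 gave 5 (against 20.9%). Fewer arrays also make it easier for the diets not to overlap. With array weights from limma, 8 members (22.9%) were at an unadjusted p under 0.05, against 29.3% of all tested probe sets. With no filter on dim probe sets it was 3 of 56 (5.36%, against 8.65%), 6 of 56 did not overlap (10.7%, against 12.9%), and 0 passed the adjusted test, against 0.103%. The count at an unadjusted p under 0.05 was 0 after quantile normalization (against 10.4% of all tested probe sets), 0 with centred arrays (9.88%), 2 without the intensity trend (9.74%) and 1 with the replicate number as a block (10.6%). With centred arrays 2 did not overlap (against 15.4%). With high corn oil replicate 3 read as low, 0 were at an unadjusted p under 0.05 (against 1.43%) and 0 did not overlap (against 7.53%).

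**Figure D5:**
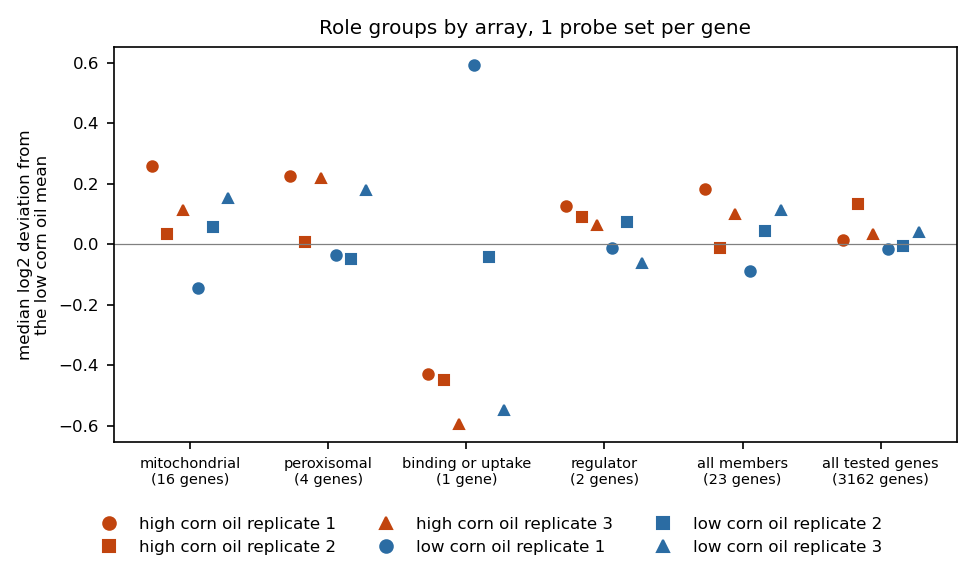
Median log2 deviation from the low corn oil mean over the tested genes of each role group, over all 23 tested members and over all 3162 tested genes, 1 point per array. The arrays of both diets overlap in each role group, in all members together and over all tested genes, and the binding or uptake group holds Fabp5 alone.

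By role, the median mitochondrial gene of the high-oil rats stood at 0.26, 0.03 and 0.11, and that of the low-oil rats at -0.15, 0.06 and 0.15. The peroxisomal genes stood at 0.22, 0.01 and 0.22 against -0.04, -0.05 and 0.18. In both groups low corn oil replicate 3 lay within the range of the high corn oil arrays. The regulator group, with Pdk2 and Ppard only, had a median difference of 0.09, which turned to -0.13 when the probe sets of a gene were averaged.

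Other genes of fatty acid handling around these members showed larger single differences. Of 79 further genes of uptake, activation, peroxisomal transport, ketone synthesis and energy sensing, 38 were tested, 21 above 0 and 17 below, with a median of 0.05. At an unadjusted p under 0.05 were 8 of their 60 probe sets (13.3%), 6 higher and 2 lower, against 9.95% of all tested probe sets, 5.15% higher and 4.81% lower. Among the higher ones were probe sets of Acsl1 and Cat, which earlier results of these data had already shown. This share therefore rests in part on values seen beforehand and cannot be read as a result about the list. The diets did not overlap in 7 of 60 (11.7%), against 15.5%, and 0 passed the adjusted test. Acsl3, an acyl-CoA synthetase that activates long-chain fatty acids, had 1829, 2584 and 2269 in the high-oil rats against 1545, 1453 and 1613 in the low-oil rats. Its diets did not overlap, and the difference was 0.48 ± 0.19 (limma adjusted p = 0.480).

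Prkaa1, a catalytic subunit of the AMP-activated kinase, which relieves the block on Cpt1 when energy is short, was on the lower side. It had 589, 297 and 502 in the high-oil rats against 1019, 1234 and 787 in the low-oil rats. All high corn oil arrays were below all low ones, with a difference of -0.93 ± 0.30 (limma adjusted p = 0.462). Acsl1, the main acyl-CoA synthetase of oxidative tissues, was at 1.07 ± 0.21 in one probe set (rc_AI044900_s_at, limma adjusted p = 0.462), and at 1.24 without high corn oil replicate 1 (limma adjusted p = 0.0257). The remaining Acsl1 probe sets gave 0.85 ± 0.28, 0.60 ± 0.18 and 0.35 ± 0.34, the last with overlapping diets. Cat, the peroxisomal catalase, was at 0.87 ± 0.25 in one probe set (limma adjusted p = 0.462) and at 0.62 ± 0.38 in the other, whose diets overlapped. The named differences of Acsl1, Prkaa1 and Cat were larger than that of any tested member in their probe sets of smallest p.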

How the data were processed

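Total RNA of 6 dorsolateral prostates was measured on a short-oligonucleotide rat array. The authors deposited 1 linear intensity per probe set and array. The submitters' processing notes name MAS5, whose version and settings are not given in the sources used here. The authors had scaled the deposited intensity values, since the mean without the highest and lowest 2% of probe sets was 2503 or 2504 on every array.

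Probe sets were named through the platform annotation, and 6985 of the 7006 with 1 gene were updated by gene identifier to GRCr8 symbols. Probe sets listing several genes named none. Values below 0 were set to 0, and log2(value + 156) was compared between diets with limma 3.58.1 in R 4.3.3 (lmFit, eBayes with intensity trend, both directions), with no covariate or further normalization. Ratios of probe sets were compared with an exact permutation test. The limma step was also run on simulated data with independent noise for each probe set and array. Those data held no array like high corn oil replicate 1, which resembled the low-oil arrays, and no result here rests on that run. The members, lists, settings and rules were chosen with earlier results of these data known. Intensities of all arrays were given for member probe sets whose diets did not overlap, the 3 genes of smallest p in each role, the PPAR genes and the 2 members with the highest means (Ucp2 and Acaa2) (the others by difference); of the other pathway genes the 4 of smallest p were named. U40064_at of Ppard was singled out after its values were seen. Alternatives changed the offset, transformation, filter, normalization, trend, array weights, blocks, the diet of high corn oil replicate 3, and the arrays used. Precision is limited by having 3 arrays per diet.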

Additional observations from a re-analysis of the deposited data

How the results depend on the processing

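No member passed limma's adjusted threshold with all arrays or in any of the other settings run. With the replicate number as a replicate block, 1 member probe set (2.86%, against 10.6% of all tested probe sets) was at an unadjusted p under 0.05 and the member median was 0.08, as without it, and the block changed no call. The labels do not say that numbers pair rats of different diets, and deviations of same-numbered arrays from their group means correlated at -0.05, -0.20 and 0.18. The spike-in controls averaged 14.04, 12.57 and 13.14 (log2) on the high-oil arrays and 14.35, 13.9 and 13.03 on the low-oil arrays. With high or low spike-in level as a block, the member median was 0.075. Differences were then 0.34 for Pex11a (AJ224120_at), -0.06 for Ech1, 0.06 for Hsd17b4 (rc_AI013834_s_at) and 0.46 for Cpt2. The count at an unadjusted p under 0.05 was 3 of 56 with no filter (5.36%, against 8.65%), 0 after quantile normalization (against 10.4%), 0 with centred arrays (against 9.88%), 2 without the intensity trend (5.71%, against 9.74%), 8 with array weights (22.9%, against 29.3% of all tested probe sets) and 0 with the third high-oil rat (high corn oil replicate 3) put in the low group (against 1.43%). Leaving out 1 array gave 0 to 7 (0% to 20%), against 4.82% to 26% of all tested probe sets. The count of probe sets with diets that did not overlap was 2 with centred arrays (5.71%, against 15.4%), 0 with that rat moved (against 7.53%) and 5 to 14 with 1 array left out (14.3% to 40%, against 20.9% to 46.1%). The regulator median, 0.09, was 0.00 with no filter and -0.13 with the probe sets of a gene averaged. The median of the other pathway genes, 0.05, was 0.13 with array weights and -0.013 to 0.118 with 1 array left out. Of the named differences 3 changed sign: Acaa2, 0.07 with all arrays, was at -0.071 with array weights and at -0.11 to 0.19 with 1 array left out, Ech1, -0.26 with all arrays, at -0.565 to 0.035 and Ucp2 at -0.016 to 0.289. The cause of these changes was not tested. Of 322 values of named probe sets under other settings, 316 were counted as keeping their direction and side of the threshold, whatever their size. Acsl1 without high corn oil replicate 1 passed it. With high corn oil replicate 3 read as low, several such values came close to 0. Eci1 (rc_AA799541_at) was then at 0.00, Hsd17b4 (rc_AI013834_s_at) at 0.037, Hadha (D16478_g_at) at 0.055 and Pex11a (AJ224120_at) at 0.122, while Cpt2 was at 0.247. With 3 arrays per diet and a floor at 0, differences of dim members could not be measured.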

Other observations

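A further 7 probe sets list a member together with another gene and were given to neither. One lists both Acot2 and Acot1. It had 1059, 1473 and 1314 in the high-oil rats against 544, 610 and 1360 in the low-oil rats, so low corn oil replicate 3 lay within the high range, and the difference was 0.61 ± 0.33 (limma adjusted p = 0.527). One lists the peroxisomal thiolase genes Acaa1a and Acaa1b and was at 0.01 ± 0.19. The other 5 list Cd36 and Cd36l1, and the 4 of them that were tested lay between -0.16 and 0.18. None of the 6 tested shared probe sets had diets that did not overlap.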
